A study of Homo sapiens with 4 samples.

Results

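The CXC chemokine genes of chromosome 4 were examined in ES2 cells treated with vehicle or with liquiritigenin (Liq). The cluster was taken as 8 genes, IL8 (the older symbol of CXCL8, used in the files), CXCL1, CXCL2, CXCL3, CXCL5, CXCL6, PPBP and PF4. They were found by symbol among the 23228 genes of the count tables, and all 8 were listed. Of these, 6 had enough reads to be tested, while CXCL6 and PPBP did not.

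ES2 is an established human ovarian cancer (OCa) cell line, and Liq is a plant flavanone used in the study as an agonist of estrogen receptor β (ERβ). Total RNA was sequenced from 4 samples, of which 2 received vehicle and 2 received 100 μM Liq, each for 24 h. The dose was taken from the study's methods and the time from the sample labels. Both groups shared the same line and, per the methods for ERβ agonist treatment, a medium free of phenol red with charcoal-stripped serum. All samples came from a single cell line, and no source states that the duplicates were separate cultures, so p-values measure only the spread between these samples. In such bulk RNA, fewer cells expressing a gene and less RNA per cell cannot be told apart.

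CXC chemokines are small secreted proteins that guide leukocytes. IL8, CXCL1, CXCL2, CXCL3, CXCL5, CXCL6 and the processed product of PPBP attract neutrophils through the receptors CXCR1 and CXCR2, whereas PF4 is a platelet granule protein that does not act in this way. Apart from PPBP, the neutrophil-attracting genes are classical targets of NF-κB, a family of transcription factors released by signals such as IL1B and TNF. Many of their mRNAs carry AU-rich elements that shorten mRNA life. Tumor cells that produce these chemokines can draw in neutrophils and promote vessel growth.

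The promoters are shown because the members share a sequence element there that the choice of genes did not use. RefSeq (GRCh38.p14) gave a promoter for 7 of the 8 members, and PF4 had no entry. The last 140 bases before each RefSeq start are printed 5′ to 3′ on the strand of the gene. Capitals mark GGAATTTCC, a κB-like element of the kind that NF-κB binds, and in IL8 also a match to the AP-1 element TGANTCA. Each sequence was found at a single place on chromosome 4 of GRCh37. IL8 was at chr4:74606146-74606285, CXCL1 at chr4:74734970-74735109 and CXCL6 at chr4:74702255-74702394, all on the plus strand. CXCL2 was at chr4:74964913-74965052, CXCL3 at chr4:74904407-74904546, CXCL5 at chr4:74864395-74864534 and PPBP at chr4:74853908-74854047, all on the minus strand. RefSeq starts can lie inside the GENCODE gene given below.
IL8: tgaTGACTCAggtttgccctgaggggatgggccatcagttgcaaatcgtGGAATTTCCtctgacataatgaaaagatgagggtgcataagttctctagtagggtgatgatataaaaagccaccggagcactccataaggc
CXCL1: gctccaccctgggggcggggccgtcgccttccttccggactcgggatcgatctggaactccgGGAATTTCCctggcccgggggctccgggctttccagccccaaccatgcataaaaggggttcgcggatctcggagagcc
CXCL2: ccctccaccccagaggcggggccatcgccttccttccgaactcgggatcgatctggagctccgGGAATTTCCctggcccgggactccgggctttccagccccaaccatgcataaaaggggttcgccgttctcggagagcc
CXCL3: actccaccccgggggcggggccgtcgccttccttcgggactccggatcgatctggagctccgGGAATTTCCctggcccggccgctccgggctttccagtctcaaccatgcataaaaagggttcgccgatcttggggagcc
CXCL5: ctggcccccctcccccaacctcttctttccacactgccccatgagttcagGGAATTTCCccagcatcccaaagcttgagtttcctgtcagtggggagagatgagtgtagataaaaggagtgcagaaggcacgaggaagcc
CXCL6: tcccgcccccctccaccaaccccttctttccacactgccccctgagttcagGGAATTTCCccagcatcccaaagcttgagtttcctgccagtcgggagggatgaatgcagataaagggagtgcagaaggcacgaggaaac
PPBP: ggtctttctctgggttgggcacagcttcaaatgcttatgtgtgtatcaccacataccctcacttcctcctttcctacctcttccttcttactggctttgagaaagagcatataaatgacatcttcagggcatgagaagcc

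GGAATTTCC, searched on both strands in the 250 bases before the start, was present in 6 of the 7 members with an entry, all but PPBP. Among all 27305 promoters in the table, 117 held it, or 0.428%. It began 91 bases before the start in IL8, 90 in CXCL5, 89 in CXCL6, 78 in CXCL1 and CXCL3 and 77 in CXCL2. All 6 copies read in the direction of the gene. The AP-1 element was found in IL8 only, beginning 137 bases before the start, and in 6.6% of all promoters. The TATA-like letters ATAAAA were found in IL8, CXCL1, CXCL2, CXCL3 and CXCL5, against 15.2% of all promoters. GGGCGG, the GC box, was found in CXCL1, CXCL3 and CXCL6, against 42.3% of all promoters. The motifs were chosen after the promoters had been read. A match describes letters only and is no evidence of binding.

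The promoters of the members fell into a pair and a trio by likeness. Over 250 bases, CXCL5 and CXCL6 were identical in 85.3% of aligned columns. CXCL1 and CXCL3 were identical in 81.4%, CXCL2 and CXCL3 in 73.4% and CXCL1 and CXCL2 in 70.1%. IL8 and PPBP stood apart from both, with 44.3% to 52.2% and 46.6% to 52.2% identity to the other members.

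The cluster was mapped with the GENCODE annotation of GRCh37 on chromosome 4. IL8 lay from 74606236 to 74609433, CXCL6 from 74702357 to 74714781 and CXCL1 from 74735110 to 74737025, on the plus strand. The other members followed on the minus strand. PF4 lay from 74846528 to 74847744, PPBP from 74852156 to 74853907, CXCL5 from 74861359 to 74864394, CXCL3 from 74902306 to 74904524 and CXCL2 from 74962757 to 74964913. All 8 are protein-coding genes.

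Each library had 34573053 to 48933893 reads on genes. Levels are given as CPM, the counts scaled to library size after TMM normalization, and the floor of 3 counts corresponded to 0.0598 to 0.0844 CPM. The floor covers counting error only, whereas the intervals of log2 changes below also include the spread between samples that edgeR estimated. Replicates of a group were more alike than samples of different groups, with a chi-square per degree of freedom of 6.56 and 11.6 within groups and 60.9 to 74.6 between them. KRT7 and KRT18, keratins of simple epithelia, were at 238 to 378 and 166 to 204 CPM, and the mesenchymal gene VIM was at 5871 to 7604 CPM. The epithelial markers EPCAM, CDH1 and KRT19, and the ovarian markers MUC16 and MSLN, had at most 3 counts in any sample. The summed level of the leukocyte markers was 66.6 to 78.0 CPM, nearly all of it CD68, while PTPRC had 1 count in 1 sample and CD3E, CSF3R, S100A8 and S100A9 had none. The summed level of the 4 endothelial markers was 46.1 to 55.7 CPM, nearly all of it CDH5 (44.6 to 52.9 CPM), while PECAM1 and VWF had at most 10 counts in any sample. Among all markers PAX8, WT1, LYZ and KDR were called lower and ITGA2B higher. LYZ and ITGA2B had enough counts to be tested only in the group where they were higher. The part of these markers in the chemokine values was not tested.

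Expression within the cluster was dominated by CXCL5 and IL8. Divided by transcript length, CXCL5 stood at 383 and 396 CPM per kb in the vehicle samples and at 230 and 276 in the Liq samples. IL8 stood at 304 and 327 CPM per kb in the vehicle samples and at 154 and 181 in the Liq samples. CXCL1 followed with 37.4 ± 0.375 CPM per kb in vehicle (SD, n = 2) and 32.4 ± 1.07 in Liq. CXCL3 had 18.8 ± 0.962 and 14.2 ± 0.513 CPM per kb, and CXCL2 had 7.31 ± 0.113 and 4.10 ± 0.191, in the same order. The order CXCL5, IL8, CXCL1, CXCL3, CXCL2 was the same in both groups, and in neither group did the samples of neighbouring genes overlap.  CXCL5 and IL8 made up most of the cluster's transcripts, with shares per length of 50.7% and 41.0% in vehicle and 53.5% and 35.5% in Liq.

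**Figure D1:**
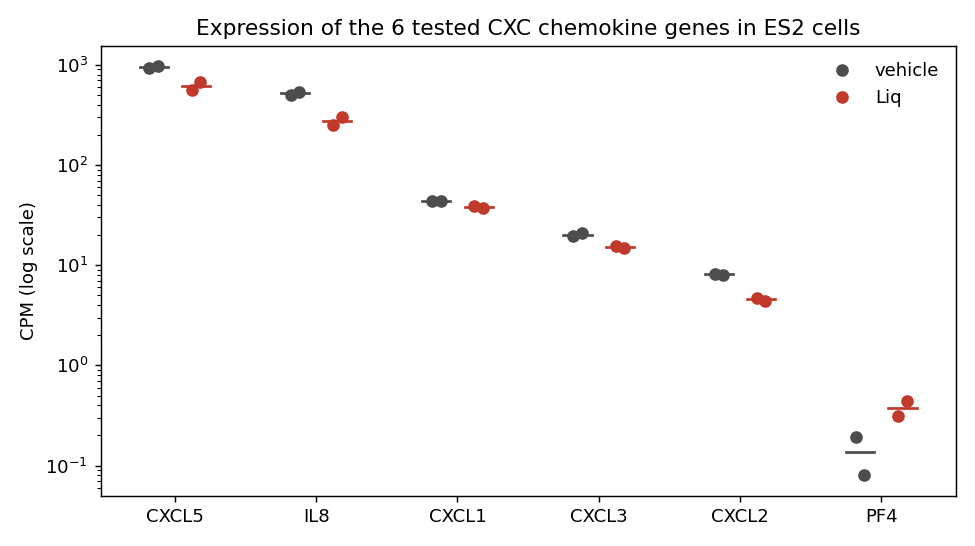
TMM-normalized level (CPM, log scale) of the 6 tested members in each vehicle sample (dark grey) and Liq sample (red), with a short line at the mean of the group. Both Liq points lie below both vehicle points for CXCL5, IL8, CXCL1, CXCL3 and CXCL2, and above them for PF4, whose values are close to the floor of 0.0598 to 0.0844 CPM. Genes that were not called separated in this way too, and their share of all tested genes was not counted.

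Liq was compared with vehicle by edgeR's quasi-likelihood test over all 13546 tested genes, and a gene was called at an adjusted p under 0.05 with at least a 1.5-fold change. IL8, CXCL2 and CXCL5 were called lower, which is 3 of the 6 tested members, whereas 2.16% of all tested genes were called lower. The members were chosen with earlier results of these data known, so these shares are a description only. No member was called higher by edgeR or by the DESeq2 Wald test, which gave PF4 no adjusted p, against 4.29% of all genes called higher by edgeR. At an unadjusted p under 0.05 edgeR had 1 member higher, PF4, which had enough counts to be tested only in the Liq samples. With no threshold on the fold, 4 of the 6 members were lower, the fourth being CXCL3, against 11.3% of all genes. The summed level of all 8 members was 1539 ± 50.9 CPM with vehicle (SD, n = 2) and 950 ± 108 CPM with Liq, or 61.8% of vehicle. Over all tested genes the median log2 fold change was 0.01, and 5% of genes were below -0.41. Whether the groups overlapped is given below for each member as a description only. With 2 samples against 2, complete separation cannot give an exact permutation p under 0.3333. Genes that were not called, such as NFKB2, CHUK and RCHY1, separated as well. The share of all tested genes that did so was not counted.

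IL8, interleukin 8, the best known neutrophil attractant of the family, had 20513 and 20096 counts with vehicle and 9011 and 14950 with Liq. In CPM these were 499 and 537 for vehicle and 253 and 298 for Liq. Both Liq samples lay well below both vehicle samples. The level in Liq was 53.3% of that in vehicle, a log2 change of -0.91 (SE 0.07, 95% interval -1.06 to -0.76, edgeR adjusted p = 6.53e-10). Of all tested genes, 1.21% had a lower log2 fold change. Over 11 alternative settings the log2 fold change of IL8 stayed between -1.03 and -0.80.

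CXCL2, a ligand of CXCR2 also known as GROβ, was expressed at a far lower level, with 339 and 302 counts with vehicle and 168 and 222 with Liq. The normalized levels were 8.25 and 8.07 CPM in vehicle and 4.72 and 4.42 CPM in Liq. The groups were apart by much more than the spread within them. The log2 change was -0.84 (SE 0.13, 95% interval -1.11 to -0.57, edgeR adjusted p = 2.93e-05), or 55.9% of vehicle.

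CXCL5, a neutrophil attractant first known as an epithelial product, was the most abundant member. It had 38323 and 36105 counts with vehicle and 19937 and 33736 with Liq. The CPM were 932 and 964 in vehicle and 561 and 672 in Liq. The groups did not overlap, but the Liq samples differed from each other more than the vehicle samples did. The log2 change was -0.62 (SE 0.07, 95% interval -0.77 to -0.48, edgeR adjusted p = 2.52e-07), or 65.0% of vehicle. This lay close to the 1.5-fold threshold. Without Liq replicate 1 the log2 fold change was -0.50, and with offsets fitted by loess it was -0.52, both short of 1.5-fold, while their adjusted p were 1.19e-09 and 9.95e-06.

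CXCL3, or GROγ, changed less. Its counts were 802 and 785 in vehicle and 557 and 747 in Liq, and its levels were 19.5 and 21.0 CPM in vehicle and 15.7 and 14.9 CPM in Liq. The groups did not overlap. The log2 change was -0.41 (SE 0.10, 95% interval -0.61 to -0.20, edgeR adjusted p = 0.00376), a 1.33-fold decrease that was not called. Without vehicle replicate 2 the adjusted p was 0.0869.

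CXCL1, or GROα, was the third most abundant member and did not pass the test. It had 1792 and 1655 counts with vehicle and 1384 and 1864 with Liq. In CPM the values were 43.6 and 44.2 in vehicle and 38.9 and 37.1 in Liq. Both Liq samples were below both vehicle samples by a small margin. The log2 change was -0.21 (SE 0.08, 95% interval -0.38 to -0.03, edgeR adjusted p = 0.0753), or 86.6% of vehicle. Without Liq replicate 1 it was -0.24, with an adjusted p of 0.0419 from edgeR, and in the fits that left out each other sample the adjusted p was 0.162 to 0.371.

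**Figure D2:**
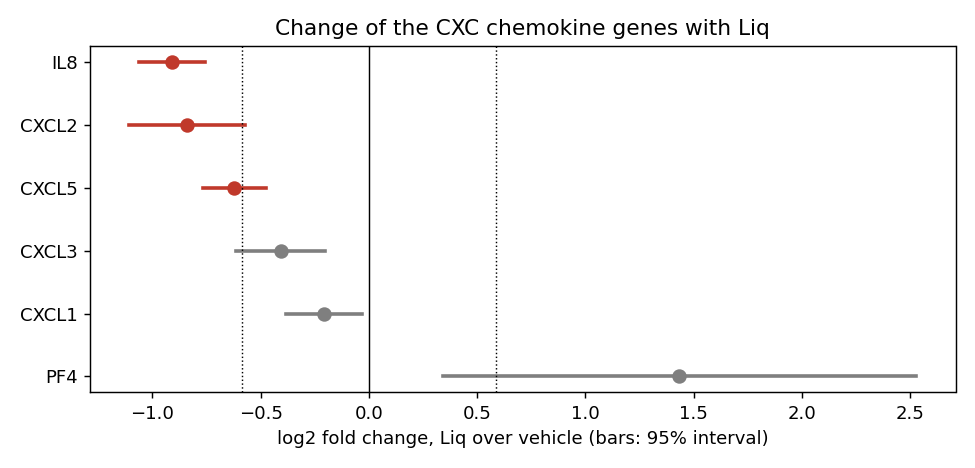
Log2 fold change (Liq over vehicle) of the 6 tested members, with bars for the 95% interval, a solid line at no change and dotted lines at 1.5-fold. Members called lower are red: IL8 at -0.91, CXCL2 at -0.84 and CXCL5 at -0.62. The grey intervals of CXCL3 and CXCL1 end below 0, and that of PF4 runs from 0.34 to 2.53.

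CXCL1, CXCL3 and CXCL5 stood higher relative to IL8 with Liq than with vehicle in every sample, while CXCL2 did not. This was measured as the log2 ratio of each member's counts to the IL8 counts of the same sample, which needs no scaling between libraries. IL8 had the lowest log2 fold change of the tested members, so a rise of the others relative to it was bound to follow on average. For CXCL1 the ratio was -3.52 and -3.60 in vehicle and -2.70 and -3.00 in Liq. The difference, Liq minus vehicle, was 0.71. For CXCL3 the ratio was -4.68 in both vehicle samples and -4.02 and -4.32 in Liq, a difference of 0.51. For CXCL5 it was 0.90 and 0.85 in vehicle and 1.15 and 1.17 in Liq, a difference of 0.29. The groups did not overlap for these 3 genes, and each exact two-sided permutation test gave p = 0.3333, the smallest that 2 samples against 2 can give. For CXCL2 the ratio was -5.92 and -6.06 in vehicle and -5.75 and -6.07 in Liq, so the groups overlapped and the difference was 0.08 (exact permutation p = 1). The share of IL8 in the cluster's transcripts per length was 40.5% and 41.5% in vehicle and 35.3% and 35.8% in Liq, while the share of CXCL1 was 4.95% and 4.78% in vehicle and 7.59% and 6.24% in Liq.

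**Figure D3:**
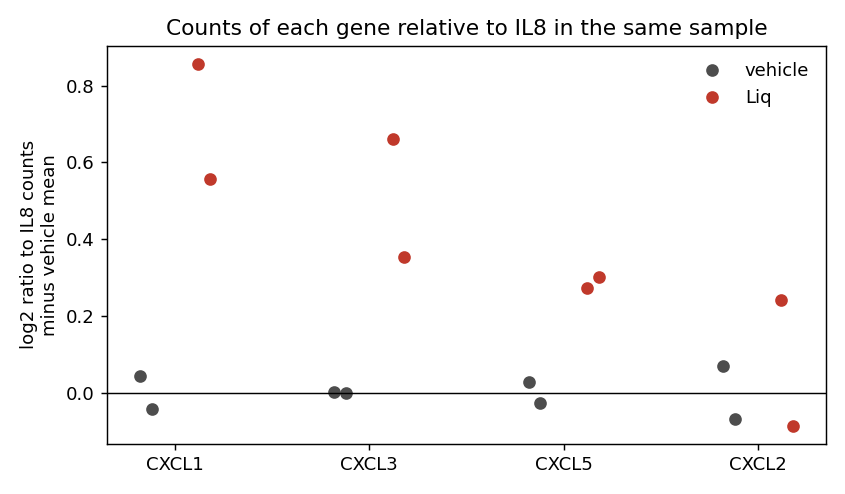
Log2 ratio of the counts of CXCL1, CXCL3, CXCL5 and CXCL2 to the counts of IL8 in the same sample, minus the mean of the vehicle samples (dark grey points vehicle, red points Liq). The Liq points are above the vehicle points for CXCL1, CXCL3 and CXCL5, and on both sides of them for CXCL2.

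Reads that align to more than 1 place were left out, so some reads of these paralogs may be missing from the counts. Of all 100-base windows of the CXCL2 transcript, 12.1% lay in CXCL1 or CXCL3 with at most 2 mismatches. The value was 8.84% for CXCL1 and 2.87% for CXCL3. A window that matches elsewhere only with mismatches may still align to 1 place, so these shares do not measure lost reads. IL8 and CXCL5 shared no window with a gene elsewhere, although 6.38% of CXCL5 windows lay in an overlapping annotated gene.

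CXCL6, PPBP and PF4 were at or near the floor. CXCL6, a neutrophil attractant whose promoter is the most like that of CXCL5, had 0 counts in the vehicle samples and 1 and 0 counts in the Liq samples. PPBP, the platelet precursor of the neutrophil-activating peptide, had 0 counts in all 4 samples. Neither gene was detectable at this depth, at which a count of 0 allows up to 0.0844 CPM in the least deeply sequenced library. CXCL5 and CXCL6 differed widely in level with a shared GGAATTTCC element and 85.3% identity over 250 bases.

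PF4, the platelet factor that binds heparin, had 8 and 3 counts with vehicle and 11 and 22 with Liq. These counts corresponded to 0.195 and 0.0801 CPM in vehicle and 0.309 and 0.438 CPM in Liq, so both Liq samples were above both vehicle samples. The log2 fold change of 1.43 (SE 0.53, 95% interval 0.34 to 2.53) was not called (edgeR adjusted p = 0.0505). In the DESeq2 Wald test it was 1.44 with a larger SE of 0.91 and no adjusted p. PF4 had enough counts to be tested only in the Liq samples, where it was higher. That selection favours a rise, so neither the fold nor the separation of the groups is evidence of one. Over the alternatives its edgeR adjusted p ran from 0.0425 without Liq replicate 1 to 0.415 without vehicle replicate 2, and it was 0.04997 with DESeq2 size factors, 0.132 with loess offsets and 0.274 without Liq replicate 2. Of the PF4 windows, 15.1% lay in its copy PF4V1, which had no counts, and 37.5% lay in an overlapping annotated gene. Among 6 platelet and megakaryocyte markers, ITGA2B had 6 and 2 counts with vehicle and 9 and 25 with Liq and was called higher. Like PF4, it had enough counts to be tested only in the Liq samples, which favours a rise. GP9, GP1BA and TREML1 had no counts, and the summed level of the 6 markers was 0.0801 to 0.498 CPM. Their part in the PF4 values was not tested.

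The receptors for these ligands were not detectable. CXCR1, the IL8 receptor with the narrower ligand range, had 0 counts in all 4 samples. CXCR2, which binds all the neutrophil-attracting members, had 1 count in vehicle replicate 1 and none elsewhere. Of 8 CXC receptor genes listed, including the scavenger receptors CXCR7 and DARC, 6 had no counts and none exceeded 1 count. The other CXC ligands were at the floor as well. Of 9 CXC ligand genes that were not among the 8 members, such as the interferon-induced CXCL9, CXCL10 and CXCL11 and the stromal CXCL12, 5 had no counts and none exceeded 2. No gene of either list could be tested.

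Genes on either side of the cluster were examined next. Of 29 neighbours in the files, 18 were tested, 1 was called lower and 1 higher, against 2.16% and 4.29% of all tested genes. Their median log2 fold change was -0.02, against 0.01 over all genes. EREG, which encodes the growth factor epiregulin, lay 636 kb from the start of IL8 and had 1812 and 1734 counts with vehicle and 599 and 939 with Liq. Its level was 45.2 ± 1.59 CPM with vehicle and 17.8 ± 1.32 CPM with Liq (mean ± SD, n = 2), a log2 change of -1.34 (SE 0.09, edgeR adjusted p = 3.22e-11). AFP, the fetal serum protein α-fetoprotein, lay 297 kb on the other side and had 14 and 13 counts with vehicle and 29 and 51 with Liq, with a log2 change of 1.42 (SE 0.34, edgeR adjusted p = 0.00318). MTHFD2L, the nearest tested gene beyond CXCL2, had a log2 change of -0.30 (SE 0.13) with an adjusted p of 0.110 and was not called.

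**Figure D4:**
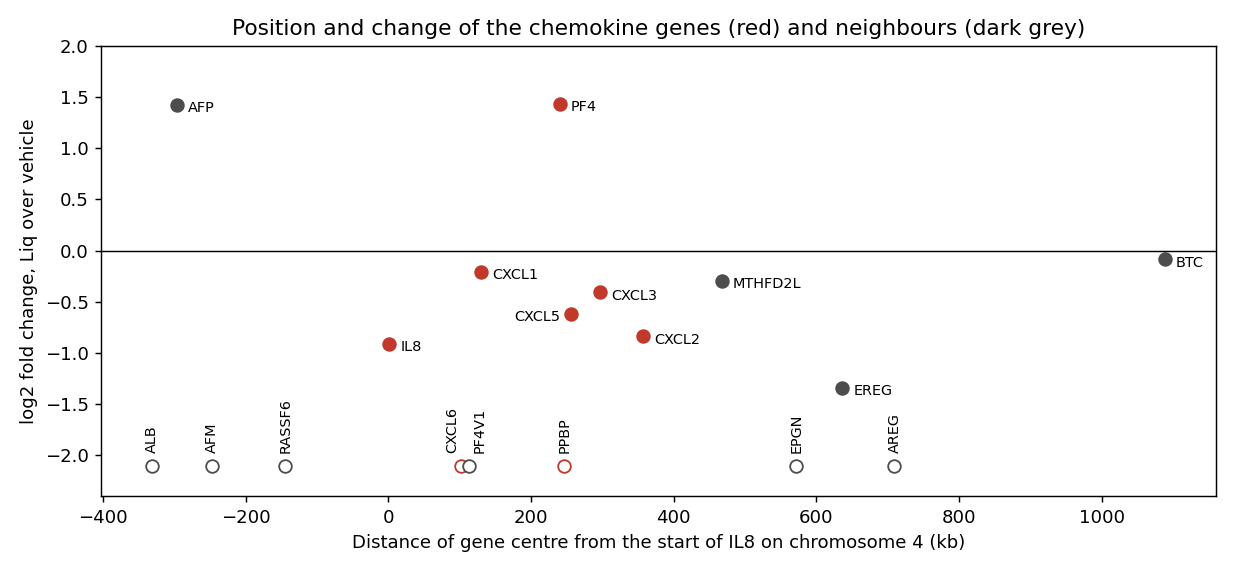
Log2 fold change (Liq over vehicle) of the members (red) and nearby genes (dark grey) against the distance of the gene's centre from the start of IL8 on chromosome 4, in kb. Filled points were tested, and open points at the bottom mark genes with too few counts to test, with no value on the vertical axis. CXCL1, CXCL3, CXCL5 and CXCL2 lie between 130 and 358 kb from the start of IL8 at -0.21 to -0.84, with PF4 at 1.43 among them.

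Genes that act upstream of the chemokines were described from lists of NF-κB factors, inducers, AP-1 and C/EBP factors and regulators of mRNA decay and stability. Of 17 NF-κB subunits and inhibitors, all tested, 1 was called lower, against 2.16% of all tested genes. None was called higher, against 4.29%, and the median log2 fold change was -0.11. The gene called was RELB, a subunit of the alternative NF-κB dimer, which went from 17.7 ± 0.0763 CPM to 11.6 ± 0.548 CPM (mean ± SD, n = 2), a log2 change of -0.61 (SE 0.10, edgeR adjusted p = 8.54e-05). That call was lost with upper-quartile scaling and without Liq replicate 1, where the list held 0 calls. RELA, the p65 subunit, was at 155 and 148 CPM in vehicle and 149 and 131 CPM in Liq, so the groups overlapped (log2 fold change -0.11, SE 0.08, edgeR adjusted p = 0.304). NFKBIA, which encodes the inhibitor IκBα and is itself a target of NF-κB, was at 33.8 and 34.4 CPM in vehicle and 27.5 and 25.7 CPM in Liq, a log2 change of -0.36 (SE 0.09, edgeR adjusted p = 0.0049) short of 1.5-fold. NFKB1 and the inhibitor TNFAIP3, named after their values were seen, also passed the adjusted p with smaller folds, at -0.38 and -0.39.

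Among 25 inducers, receptors and adaptors, 20 were tested and 1 was called lower, against 2.16% of all tested genes. None was called higher, against 4.29%. IL1B, the cytokine interleukin 1β and a strong inducer of IL8, had 17563 and 15654 counts with vehicle and 2916 and 4048 with Liq. Its level was 427 and 418 CPM in vehicle and 82.0 and 80.7 CPM in Liq, a log2 change of -2.38 (SE 0.07, edgeR adjusted p = 4.24e-19). Its 95% interval, -2.52 to -2.23, lay below those of all 6 tested members. The list's median log2 fold change was 0.03. TNF, chosen after its values were seen, had 0 counts in 3 samples and 2 counts in Liq replicate 1.

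Of 12 AP-1 and C/EBP factors, 11 were tested and 3 were called lower, against 2.16% of all tested genes. None was called higher, against 4.29%, and the median log2 fold change was -0.04. FOS, FOSB and JUNB, which encode AP-1 subunits, were the 3 called, while JUN, named after its values were seen, was at -0.03 (SE 0.07, edgeR adjusted p = 0.756). FOS had 134 and 133 counts with vehicle and 78 and 88 with Liq, a log2 change of -0.80 (SE 0.18). FOSB had 277 and 275 counts with vehicle and 129 and 187 with Liq, at -0.93 (SE 0.14). JUNB had 1325 and 1197 counts with vehicle and 708 and 783 with Liq, at -0.86 (SE 0.10). Their adjusted p from edgeR were 0.00207, 1.63e-05 and 7.72e-07. Of 14 regulators of mRNA decay and stability, all tested, the median log2 fold change was -0.14 and 1 was called lower, against 2.16% of all tested genes. It was ZC3H12A, an RNase that degrades cytokine mRNAs, at 7.44 and 7.08 CPM in vehicle and 5.03 and 4.16 CPM in Liq (log2 fold change -0.67, SE 0.14, edgeR adjusted p = 0.000757), a call that was lost without Liq replicate 2, where the list held 0 calls.

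Other secreted factors that respond to NF-κB moved in both directions. Of 16, 10 were tested and 3 were called lower, against 2.16% of all tested genes. A further 1 was called higher, against 4.29%, and the median log2 fold change was -0.23. IL11, a cytokine of the IL6 family, went from 41.8 ± 1.06 CPM to 14.9 ± 1.11 CPM (mean ± SD, n = 2), a log2 change of -1.49 (SE 0.10). LIF, of the same family, was at 184 and 188 CPM in vehicle and 104 and 88.7 CPM in Liq, at -0.95 (SE 0.08). CSF3, the granulocyte growth factor, was at 10.1 and 9.32 CPM in vehicle and 3.74 and 3.09 CPM in Liq, at -1.52 (SE 0.14). CSF1, the macrophage growth factor, rose from 7.30 and 6.57 CPM to 12.6 and 11.7 CPM, at 0.80 (SE 0.12). Their adjusted p from edgeR were 5.33e-12, 1.11e-09, 4.49e-09 and 1.25e-05, in that order. The estrogen receptor genes were at the low end, with ESR1 at 22 and 17 counts with vehicle and 19 and 34 with Liq and ESR2, which encodes ERβ, at 4 and 7 counts with vehicle and 5 and 14 with Liq. Of the 3 estrogen receptor genes listed, ESR1 and GPER were tested and neither was called.

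**Figure D5:**
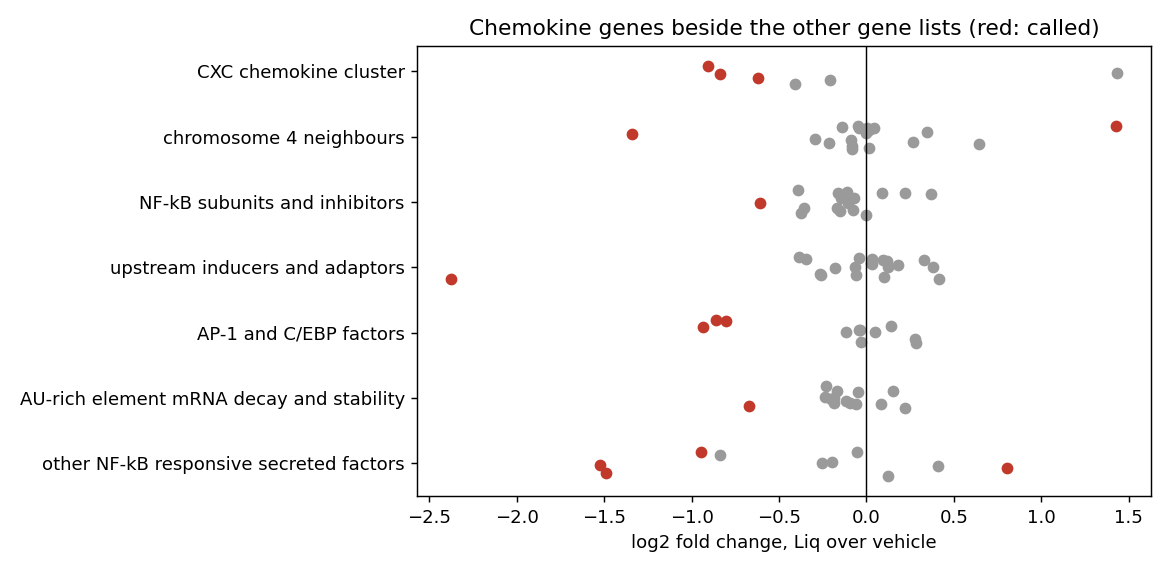
Log2 fold change (Liq over vehicle) of every tested gene of the chemokine cluster and of 6 other gene lists, spread vertically within each list only to separate the points. Called genes are red. IL1B at -2.38 is the lowest point, and the called chemokine genes lie between -0.91 and -0.62.

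The genes with the most similar pattern over the 4 samples were sought for CXCL5 and IL8, the 2 tested members with the highest mean CPM, by the Euclidean distance between centred log2 CPM values. The nearest to CXCL5 were IKZF2 at a distance of 0.04, YARS2 at 0.05, and ELTD1, BIRC3 and TMEM22 at 0.08 each. The nearest to IL8 were TMEM71 at 0.05, TMEM156, OAZ3 and LRFN5 at 0.06 each, and PTPN22 at 0.07. No member of the cluster was among the 5 genes nearest to either. These distances describe 4 libraries, with no test.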

How the data were processed

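Total RNA from ES2 cells (2 vehicle and 2 Liq samples) was made into Illumina TruSeq libraries and sequenced as 100-base single-end reads on an Illumina HiSeq. Per the submitters' processing notes, bcl2fastq 2.17.1.14, TopHat2 2.0.8b, HTSeq and hg19 (GRCh37) were used; the HTSeq version and strand setting are not given in the sources used here. The authors deposited raw counts per gene, with no normalization. Reads aligned to more than 1 place and reads of ambiguous genes are absent from these counts. The tally of alignments to more than 1 place was 35.6% to 36.2% of the sum of all lines. It may hold a read more than once, so it is not a share of reads. The tally lines at the end of each table, 44.4% to 45.9% of that sum, were left out of library sizes and tests.

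The tests used edgeR 4.0.16 in R 4.3.3, with filterByExpr (minimum count 10, minimum total 15), TMM, glmQLFit and glmQLFTest without a block, and Benjamini-Hochberg adjustment over 13546 genes. SE is the log2 fold change divided by the square root of F. A call needed an adjusted p under 0.05 and 1.5-fold, the thresholds of the study's methods applied to the adjusted p. CPM per kb used the canonical transcript of GENCODE 44 on GRCh37. Windows were aligned to transcripts with bwa 0.7.19, and promoters were compared with Biopython 1.88. The scripts were tested on simulated data.

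The members and lists were chosen with earlier results of these data known. The text names all 8 members; of each other list the genes called, up to 5 by smallest p, with CXCR1, CXCR2, RELA, NFKBIA, ESR1 and ESR2; markers by their role; and the 5 genes nearest to each of the 2 tested members with the highest mean CPM. Genes beyond this rule were chosen after their values were seen. Alternatives were DESeq2 1.42.0 size factors and Wald test, upper-quartile and loess (span 0.3) scaling, other filters and call rules, a replicate block, and each sample left out. The other experiments of the study were not analysed here.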

Additional observations from a re-analysis of the deposited data

How the results depend on the processing

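IL8, CXCL1, CXCL2 and CXCL3 kept their direction and their side of the calling threshold in all 11 alternatives, with log2 fold changes of -1.03 to -0.80, -0.24 to -0.17, -0.95 to -0.79 and -0.46 to -0.36. CXCL5 kept its direction but fell short of 1.5-fold with loess offsets (-0.52) and without Liq replicate 1; leaving out each sample in turn gave -0.76 to -0.50. PF4 passed the threshold with DESeq2 size factors (1.43, edgeR adjusted p = 0.04997) and without Liq replicate 1, with 0.96 to 2.21 over the fits that left out a sample. At 2-fold, 0 members were called lower.

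The number of genes called was 874, and it was 567 with the DESeq2 Wald test, 328 at 2-fold and 3245 with no fold threshold. Called genes of the other lists numbered 12, against 5 at 2-fold and 28 with no fold threshold. Loess offsets gave 391 lower and 352 higher genes, so 47.4% of calls were higher against 66.5% with TMM. The DESeq2 Wald test left 1 of the 2 neighbour calls. The cause was not tested. Relative to all other members in place of IL8, CXCL2 went from 0.08 to -0.14, with the groups overlapping in both. The differences of the other 3 genes shrank, from 0.71 to 0.51 for CXCL1, 0.51 to 0.30 for CXCL3 and 0.29 to 0.20 for CXCL5. Their groups did not overlap with either base. The sum of all other members includes the IL8 counts, so it is not independent of the first base and adds no separate support.

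Deviations of samples with the same replicate number correlated at 0.05 over 13546 genes, and with 2 pairs the numbers were not taken to pair the samples. The fit with a replicate block called 898 genes (297 lower and 601 higher) and changed no member's call; the adjusted p of CXCL1 was 0.0191 from edgeR, short of 1.5-fold. With 2 samples per group, leaving out a sample leaves 1, which is then assumed to vary like the others. Genes under about 0.0844 CPM could not be measured.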

Other observations

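GGAATTTCC, the element shared by 6 promoters of the cluster, was also held by 35 other tested genes in the 250 bases before their start. Of these, 3 (8.57%) were called lower, against 2.16% of all tested genes, and none was called higher. The 3 were DUSP6, a phosphatase of ERK, ICAM1, an adhesion molecule induced by NF-κB, and INSC. The median log2 fold change of the 35 was 0.01, equal to that of all tested genes at 2 decimals. The motif was chosen after the promoters of the cluster had been read, and no test was made.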
